A study of Homo sapiens with 6 samples.

Results

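The genes described here are MYC, its dimerisation partner MAX and 34 genes whose products make ribosomes, 36 named genes in all. They were taken by symbol, wherever a probe set carried that symbol alone, and the probe set with the highest mean over the 6 arrays stood for each gene. Of the 36, 35 were measured, out of 18132 genes on the arrays. The signal of GNL3, which encodes the nucleolar GTPase nucleostemin, was not analysed here, and the gene enters the promoter search alone. The samples were A549 cells, an established lung adenocarcinoma line, grown in serum-supplemented medium. The 3 arrays titled sh_ctrl carry a scrambled negative control, and the 3 titled sh_LINC00525 (knockdown arrays below) carry small interfering RNA against the long noncoding RNA LINC00525. The titles say "sh" where the treatment text says siRNA. In the genotype label, knockdown replicates 2 and 3 carry other LINC numbers. For dose and time after transfection nothing is given in the sources used here. Nor do the labels say whether replicates are separate cultures, so each p-value reflects the spread among these 6 samples and no more, and that spread may be technical.

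MYC is a transcription factor that binds DNA as a dimer with MAX, and its best known binding sequence is the E-box. Genes for ribosome production are among its classical targets in growing cells. Ribosomes begin in the nucleolus, where RNA polymerase I copies the ribosomal DNA into a long precursor RNA. Small nucleolar ribonucleoproteins modify that RNA, and assembly factors fold, cut and export the small and the large subunit.

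Signals are log2 values after RMA, in which each array is brought to the same distribution, so each change is set against the array's typical gene. LINC00525 itself fell by 0.30 ± 0.075 log2 units (SE, limma adjusted p = 0.0372) from a control level of 3.86 ± 0.12 (SD, n = 3), which lies inside the range of 2.27 to 4.6 covered by the 17 Tag control probe sets, built to match no human transcript. That call was lost without control replicate 1 or 3 or knockdown replicate 2 or 3 (adjusted p of 0.096 to 0.111). It was also lost without variance moderation (adjusted p = 0.151). All 35 measured members lay above every Tag probe set on the control arrays. Of 10 epithelial and A549 markers, 0 lay within the Tag range, and of 7 measured leukocyte and 8 fibroblast and endothelial markers, 4 and 6 did. Among the 7 leukocyte markers CD68 alone rose (log2 0.61, limma adjusted p = 0.000465) and 0 fell. The log2 change was below 0 for 4 of the 7, and the list median was -0.06. The mean level of the list, CD68 included, was 4.30 to 4.33 on control and 4.37 to 4.39 on knockdown arrays. PTPRC and LYZ had control means of 2.32 and 2.42. What part these markers have in the results below was not tested.

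The E-box was more frequent in the promoters of the members than in all promoters. The members were chosen as MYC and genes of a process it classically targets, so this share is not independent of that choice. RefSeq promoter sequences (GRCh38.p14, 250 bases before and 50 bases after the start site) were available for 30 of the 36 genes, with 38 promoters among them. The canonical E-box CACGTG, which reads the same on both strands, was present in 13 of these 38 promoters (34.2%), against 7.26% of all 35116 promoters. Counted by gene, it was present in 13 of 30 members (43.3%), against 8.77% of all genes and 10.9% of protein-coding genes. Every match in a member began between 31 bases before and 36 bases after the start site, and 10 of the 13 began at or after the start. In all promoters together, 11.1% of matches began there. The windows below, each 30 bases with the E-box in capitals, show the match in the members that hold it and fell (BYSL and PES1) and in 4 that hold it and did not pass the test.
BYSL (chr6:41921515-41921544, plus strand): ttcttcagtcccCACGTGcgatccttcccg
PES1 (chr22:30591880-30591909, minus strand): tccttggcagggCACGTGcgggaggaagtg
FBL (chr19:39846356-39846385, minus strand): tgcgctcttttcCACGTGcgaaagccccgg
PNO1 (chr2:68157885-68157914, plus strand): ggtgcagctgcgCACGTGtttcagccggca
NOC3L (chr10:94362903-94362932, minus strand): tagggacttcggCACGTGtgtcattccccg
WDR43 (chr2:28894658-28894687, plus strand): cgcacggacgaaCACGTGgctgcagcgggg
The match begins 29 bases after the start in BYSL, 14 in PES1, 7 in FBL, 10 in PNO1, 20 in NOC3L and 4 in WDR43. The other members with a match were RRP9, GNL3, NOP14, LTV1, DDX21, NOP2 and UTP20. A match is a run of letters and was not tested for binding here.

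**Figure D1:**
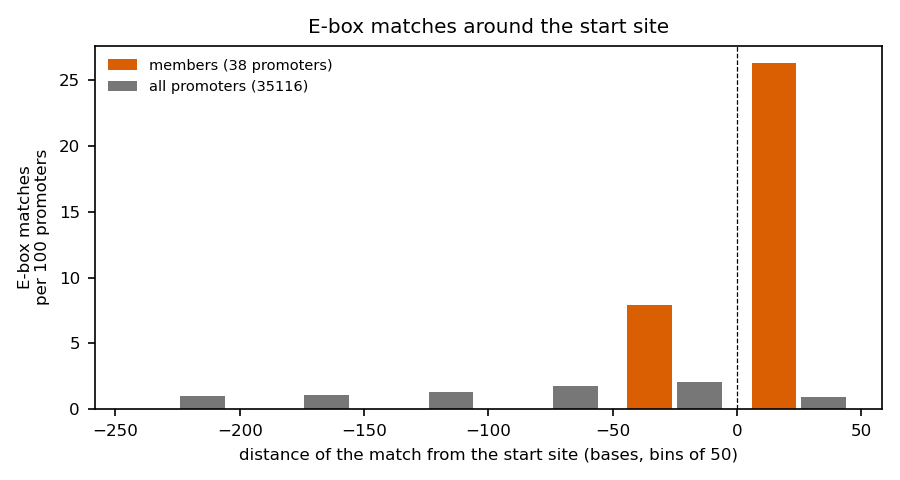
Matches to the E-box per 100 promoters (vertical axis) in bins of 50 bases by distance from the start site (horizontal axis; negative is before the start), for the 38 member promoters (orange) and all 35116 promoters (grey). Members have 26.3 matches per 100 promoters in the bin after the start, against 0.888 in all promoters, and none in the 4 bins farthest before it.

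Assembly genes carried most of these matches, and RNA polymerase I genes carried 0. Among the members with a promoter sequence, an E-box was present in 7 of 10 small subunit assembly genes, 3 of 7 large subunit genes, 2 of 4 genes of abundant nucleolar proteins (DDX21 and GNL3) and 1 of 3 small nucleolar ribonucleoprotein genes (FBL). It was present in 0 of the 5 genes of RNA polymerase I and its factors, and not in MAX. MYC, NOP58, NOLC1, RRP12, BOP1 and RRP1B had no promoter sequence here. A pair of other motifs, chosen after the values were seen, was also searched on both strands, and no match of theirs in a member shares bases with an E-box match. The ETS core CCGGAAG was in 39.5% of member promoters and 10.3% of all promoters, POLR1B, POLR1C and RRN3 among them. The NRF1 palindrome was in 5.26% of member promoters and 1.24% of all, in DDX10 and DKC1. POLR1A and UBTF, which also fell, have neither motif in these windows around the start. The stretches below show the motifs in capitals in POLR1B and POLR1C, the polymerase genes that fell and hold an ETS core, and in DDX10, the member with the largest change.
POLR1B (chr2:112542412-112542441, plus strand): tgcggccactaCTTCCGGcgtgtaccgaga
POLR1C (chr6:43516954-43516983, plus strand): aaaagcaacttCCGGAAGctggggacgtgg
DDX10 (chr11:108665043-108665072, plus strand): ttctgagttcGCGCATGCGCctctgtgcgt
Counted from the start site, the motif begins at position -42 in the POLR1B promoter shown, -124 in POLR1C and -16 in DDX10.

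Ribosome biogenesis genes were mostly lower on knockdown arrays, by small amounts, while MYC and the RNA helicase DDX10 were higher. Of the 35 measured members 8 fell, 2 rose and 25 did not pass the test (limma, adjusted p under 0.05). The 8 that fell are 22.9% of the members, against 6.83% of all 18132 genes and 10.3% of the 11364 genes whose mean lay above every Tag probe set. The 2 that rose are 5.71%, against 5.77% of all genes and 8.24% of those above the Tag range, a share no larger than the background. The median log2 change of the members was -0.08, against -0.01 for all genes, and 28 of 35 were below 0, against 56.4% of all genes. On 21 of 35 the 3 knockdown values all lay below the 3 control values, which held for 17.9% of all genes and 25.2% of those above the Tag range. In a bulk sample, fewer cells with a transcript and less of it per cell cannot be told apart. The number of falls depends on the arrays: 5 members fell when control replicate 1 or 3 or knockdown replicate 1 or 3 was left out, and 4 when control replicate 2 or knockdown replicate 2 was. The share of all genes that fell dropped as well, to between 2.6% and 4.37%.

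**Figure D2:**
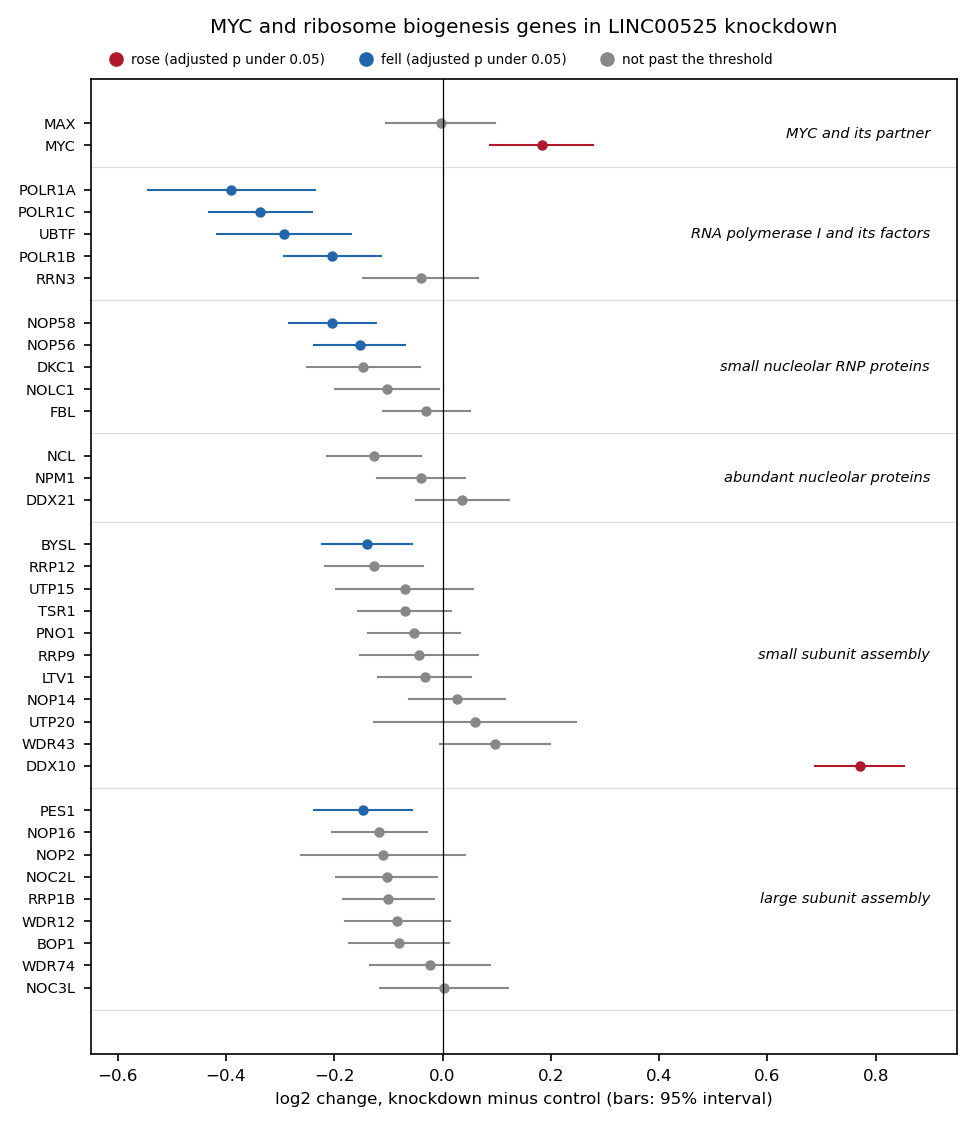
Log2 change of each of the 35 measured members, knockdown minus control (horizontal axis), with its 95% interval from the limma fit, grouped by role. Blue members fell, red rose and grey did not pass an adjusted p of 0.05. RNA polymerase I genes lie at -0.39 to -0.04, and DDX10 stands apart at 0.77. MYC, at 0.18, turns to -0.10 when arrays are scaled to the hybridization controls.

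The shift was present on each knockdown array and differed in size among them. Relative to each gene's control mean, the median member lay at -0.11 on knockdown replicate 1, -0.08 on replicate 2 and -0.06 on replicate 3, and at 0 to -0.003 on the control arrays. The median level of all genes was 5.62 to 5.65 on all 6 arrays. Bacterial hybridization controls were higher on knockdown arrays by 0.281 log2 units and poly-A controls by 0.141. Scaling to them moves the median of all genes to -0.295 and -0.154. With these scalings 32 and 27 of the 35 members fell, against 83.2% and 46.3% of all genes.

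MYC was measured by 1 probe set and was slightly higher after knockdown. Its log2 signal was 8.93, 8.91 and 8.85 on control arrays and 9.05, 9.07 and 9.12 on knockdown arrays. Every knockdown value lay above every control value. The mean went from 8.90 ± 0.042 to 9.08 ± 0.036 (SD, n = 3 each), a 1.14-fold rise (log2 0.18 ± 0.041 SE, limma adjusted p = 0.0264), which turned to -0.10 (adjusted p = 0.320) with arrays scaled to the hybridization controls and was 0.04 (adjusted p = 0.546) scaled to the poly-A controls. By size of rise it ranked 940 among the 1046 genes that rose. Without control replicate 1, 2 or 3 or knockdown replicate 2 or 3 the call did not hold (adjusted p from 0.0544 to 0.0828), and the log2 change was 0.16 to 0.20.

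MAX, which MYC needs to bind DNA and which also pairs with antagonists of MYC, gave 8.20, 8.16 and 8.26 on control arrays and 8.18, 8.18 and 8.25 on knockdown arrays. The groups overlapped, and the log2 change was -0.003 ± 0.043 (SE), with a 95% interval of -0.10 to 0.10 (limma adjusted p = 0.973). Its 12 probe sets ranged from -0.09 to 0.17, none past the threshold.

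RNA polymerase I and its factors held the largest falls among the members, with a median log2 change of -0.29. Of these 5 genes 4 fell (80%, against 6.83% of all genes and 10.3% of those above the Tag range). POLR1A, the largest subunit of the enzyme, gave 6.95, 6.88 and 6.97 on control arrays and 6.49, 6.45 and 6.69 on knockdown arrays. Knockdown replicate 3 was the least lowered, and the groups did not overlap. POLR1A fell by 0.39 ± 0.066 (SE, limma adjusted p = 0.00981), or 1.31-fold, rank 69 by size among the 1239 genes that fell. POLR1C, a subunit that RNA polymerases I and III share, gave 7.38, 7.45 and 7.36 against 7.03, 7.06 and 7.09, tight in both groups and with a clear gap between them. It fell by 0.34 ± 0.041 (SE, limma adjusted p = 0.00247), or 1.26-fold. UBTF, the factor that opens and marks active ribosomal DNA, gave 6.67, 6.71 and 6.85 on control arrays and 6.48, 6.44 and 6.43 on knockdown arrays. Control replicate 3 was the highest, and the lowest control value was still above every knockdown value. UBTF fell by 0.29 ± 0.053 (SE, limma adjusted p = 0.0125). Without variance moderation neither POLR1A nor UBTF passed (adjusted p = 0.0723 and 0.0665). POLR1B, the other large catalytic subunit, gave 7.69, 7.72 and 7.67 against 7.53, 7.47 and 7.47, and fell by 0.20 ± 0.038 (SE, limma adjusted p = 0.0148). The POLR1B call was lost without control replicate 2 (-0.19, adjusted p = 0.0611) or knockdown replicate 2 (-0.19, adjusted p = 0.0548).

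RRN3, the initiation factor that recruits RNA polymerase I to the promoter, did not pass the test. It gave 7.70, 7.71 and 7.67 on control arrays and 7.59, 7.64 and 7.73 on knockdown arrays, where replicate 3 was above every control. The log2 change was -0.04 ± 0.046 (SE, limma adjusted p = 0.647), with a 95% interval of -0.15 to 0.07. Its 3 probe sets gave -0.04 to -0.01.

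The falls in the polymerase genes recurred across probe sets. All 6 POLR1B probe sets were below 0, at -0.24 to -0.10, and 3 of them fell. All 3 POLR1C probe sets lay at -0.34 to -0.20, of which 2 fell. The dimmest of them, with a control level of 4.02, lay within the Tag range and did not pass. All 4 UBTF probe sets lay at -0.29 to -0.17, of which 2 fell. The second POLR1A probe set gave -0.35 and did not pass the threshold (limma adjusted p = 0.0714 over all probe sets). The POLR1B and POLR1C probe sets used here are _x_at sets, a type whose probes may match similar transcripts too. The brighter POLR1C probe set of another type gave -0.21 (limma adjusted p = 0.0287 over all probe sets). Without probe sets marked _s_at or _x_at, POLR1B stood at -0.10 (adjusted p = 0.207).

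Transcripts for proteins of the small nucleolar ribonucleoproteins, which guide chemical modification of ribosomal RNA, fell in 2 of 5 cases. That is 40%, against 6.83% of all genes and 10.3% of those above the Tag range. NOP58, a core scaffold of the box C/D class, gave 10.48, 10.48 and 10.47 on control arrays and 10.28, 10.26 and 10.28 on knockdown arrays. The values were nearly identical within each group. NOP58 fell by 0.20 ± 0.034 (SE, limma adjusted p = 0.00946). The other NOP58 probe set fell by 0.19. NOP56, its partner in the same particle, gave 10.70, 10.72 and 10.70 against 10.56, 10.52 and 10.58, without overlap. NOP56 fell by 0.15 ± 0.036 (SE, limma adjusted p = 0.0329). With 5 arrays, whichever was dropped, NOP56 did not pass (adjusted p from 0.0572 to 0.108). Its 4 probe sets lay at -0.22 to -0.12. All 4 are marked _s_at or _x_at, so NOP56 has no value when those types are left out. DKC1, the pseudouridine synthase of the box H/ACA class, was at -0.15 ± 0.045 (adjusted p = 0.0757). NOLC1, a chaperone of these particles, was at -0.10 (adjusted p = 0.159). FBL, the methyltransferase fibrillarin, was at -0.03, with a 95% interval of -0.11 to 0.05 (adjusted p = 0.647).

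Of the abundant nucleolar proteins, 0 of 3 measured passed the test. Nucleolin, NCL, gave 11.54, 11.59 and 11.60 on control arrays and 11.44, 11.47 and 11.44 on knockdown arrays, a log2 change of -0.13 ± 0.037 (adjusted p = 0.0668). NPM1, the histone and ribosome chaperone nucleophosmin, was at -0.04, and its 6 probe sets lay at -0.08 to 0.01. DDX21, a helicase that links RNA polymerase I transcription to processing, was at 0.04, and its 3 probe sets lay at 0.04 to 0.12.

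DDX10 was the member with the largest change and went the opposite way to most of the others. This RNA helicase acts in early assembly of the small subunit. Its log2 signal was 6.75, 6.76 and 6.79 on control arrays and 7.54, 7.52 and 7.55 on knockdown arrays. The 2 groups were each tight and lay far apart. DDX10 rose by 0.77 ± 0.035 log2 units (SE), or 1.71-fold, with an adjusted p of 1.9e-05 in limma. By p it ranked 35 among all 18132 genes, and by size of rise 97. It rested on 1 probe set, so no other probe set of the gene could be compared. The rise passed under each alternative setting and each left-out array, at 0.76 to 0.78 without 1 array, and was 0.49 when scaled to the hybridization controls.

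The remaining genes of small subunit assembly changed little. Of the 11 in this group 1 fell (9.09%, against 6.83% of all genes and 10.3% of those above the Tag range). BYSL, the assembly factor bystin, gave 7.86, 7.88 and 7.90 on control arrays and 7.74, 7.72 and 7.76 on knockdown arrays, without overlap. BYSL fell by 0.14 ± 0.036 (SE, limma adjusted p = 0.0425). With 5 arrays, whichever was dropped, it did not pass (adjusted p from 0.0746 to 0.126). Its 3 probe sets lay at -0.19 to -0.12, but 2 of them, with control levels of 2.48 and 2.50, were within the Tag range. RRP12, an export factor, was at -0.13 ± 0.039 (adjusted p = 0.0781). The late factors PNO1, TSR1 and LTV1 were at -0.05, -0.07 and -0.03, and the early factors UTP15, RRP9 and UTP20 at -0.07, -0.04 and 0.06. WDR43, another early factor, was at 0.10 (adjusted p = 0.210) by 1 probe set and at -0.09 by its other. NOP14 depends on the probe set: the brightest gave 0.03 ± 0.038 (adjusted p = 0.721), and the other 2 gave -0.22 and -0.38, of which the last fell (limma adjusted p = 0.00751 over all probe sets). Averaged over its probe sets, the NOP14 log2 change was -0.19 (adjusted p = 0.00941).

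**Figure D3:**
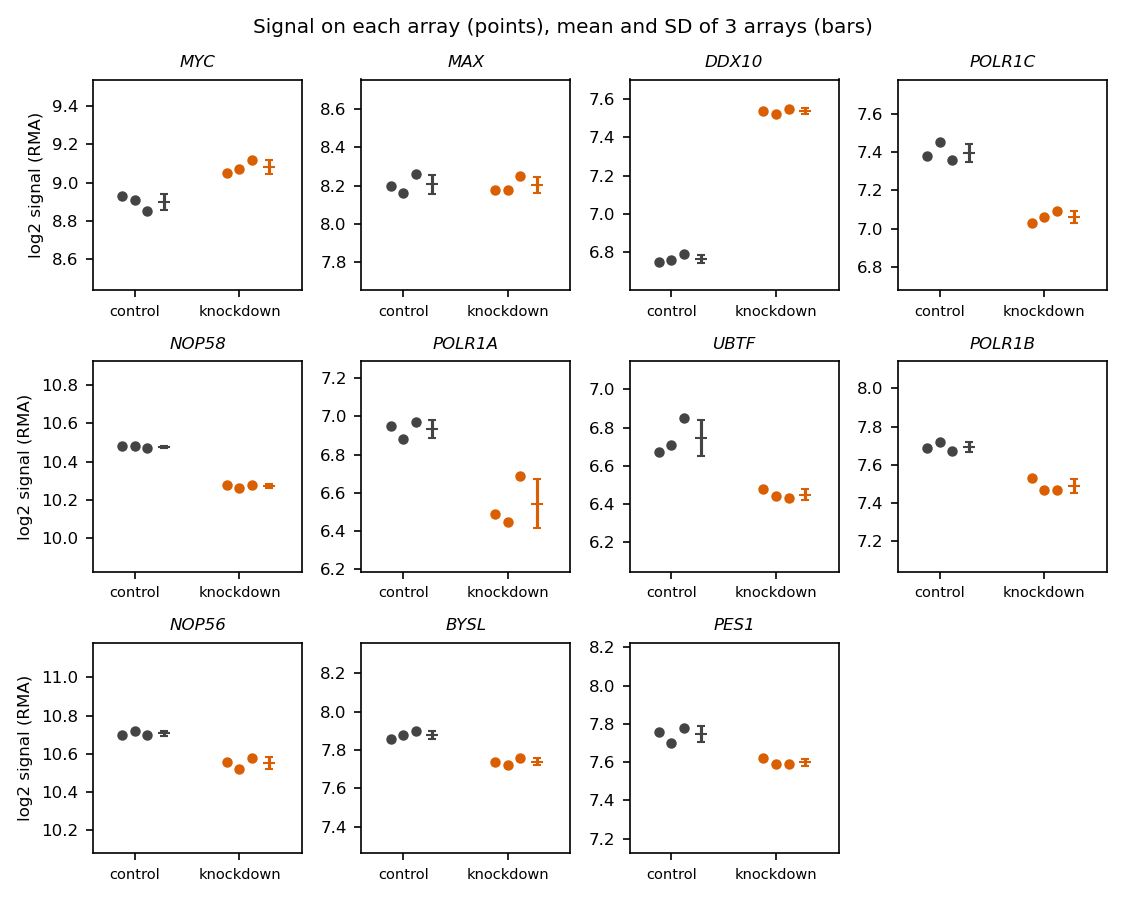
Log2 signal (vertical axis) of MYC, MAX and the 9 other members past the threshold on each of the 3 control (grey) and 3 knockdown (orange) arrays, with the mean and SD beside the points. All panels span the same height. The groups overlap for MAX alone, and DDX10 has the widest gap. MYC, higher here, is lower when arrays are scaled to the hybridization controls.

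Of 9 large subunit assembly genes 1 fell (11.1%), near the 10.3% of genes above the Tag range that fell, against 6.83% of all genes. A change below 0 was seen in 8 (88.9%, against 56.4% of all genes). PES1, which forms a complex with BOP1 and WDR12 needed to process the large subunit precursor, gave 7.76, 7.70 and 7.78 on control arrays and 7.62, 7.59 and 7.59 on knockdown arrays. Its groups did not overlap. PES1 fell by 0.15 ± 0.039 (SE, limma adjusted p = 0.0474), and did not pass with any 1 of the 6 arrays dropped (adjusted p from 0.0684 to 0.133). Its partners BOP1 and WDR12 were both at -0.08 (adjusted p = 0.252 and 0.257), without overlap of the groups, and 1 of the 3 WDR12 probe sets fell by 0.26 (limma adjusted p = 0.0110 over all probe sets). NOP16, NOP2, NOC2L and RRP1B, further assembly factors, lay at -0.12 to -0.10, and WDR74 and NOC3L at -0.02 and 0.003. RRP1B gave 0.10 at its dimmer probe set, whose control level of 4.30 was within the Tag range.

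Over all 100 probe sets of the 35 members 75 were below 0, 14 fell and 2 rose (limma, adjusted over all 49372 probe sets). The background was 5.25% of probe sets that fell and 4.64% that rose. Of the 28 members with more than 1 probe set, 17 had all of them below 0, 2 had all above 0 and 9 were mixed. Probe sets of 1 gene share transcripts and are not replicates. Some of the 100, such as the dimmer ones of BYSL, lay within the Tag range. In this fit the brightest probe sets of NOP56, BYSL and PES1 no longer passed (adjusted p = 0.0520, 0.0666 and 0.0694).

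**Figure D4:**
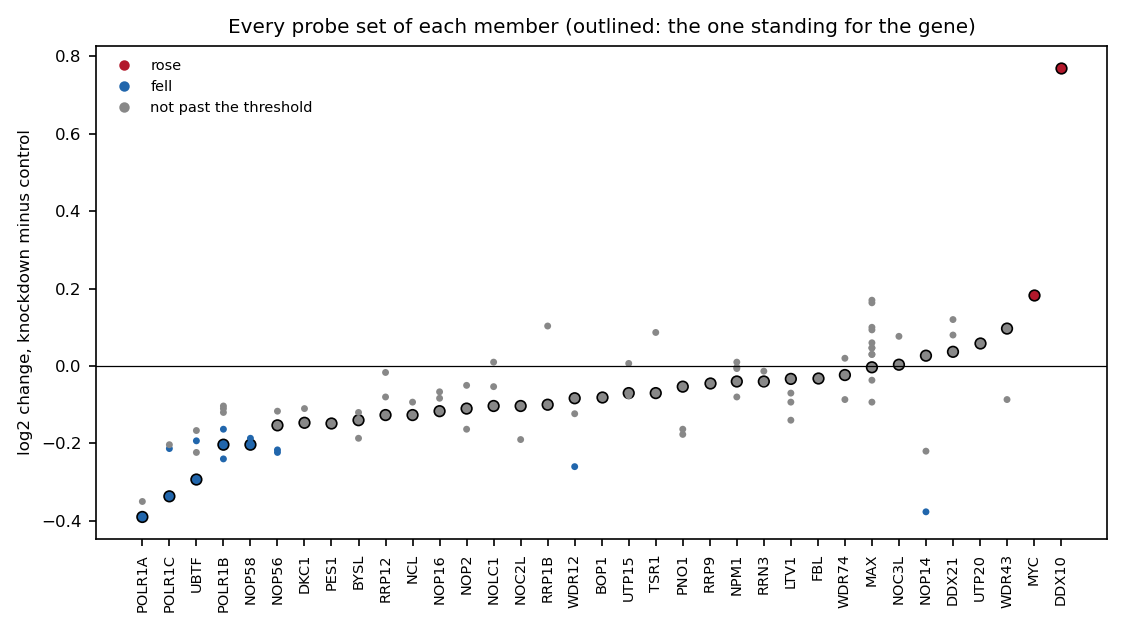
Log2 change, knockdown minus control (vertical axis), of all 100 probe sets of the 35 members, ordered by the probe set standing for the gene (outlined). Blue fell and red rose at an adjusted p under 0.05 over all probe sets. NOP14 and MAX have the widest spreads, and MYC and DDX10 have 1 probe set each. MYC turns below 0 when scaled to the hybridization controls.

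Members with and without an E-box can be set side by side. Of the 12 measured members with a match, 2 fell and 0 rose, at a median log2 change of -0.03 and a range of -0.15 to 0.10. Of the 17 without a match, 5 fell and 1 rose, at a median of -0.10 and a range of -0.39 to 0.77. The 4 polymerase genes that fell are all in the second group. The difference was not tested.

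Other genes of the pathway were counted on 10 lists with 297 genes, 274 of them measured, of which 27 fell (9.85%) and 10 rose (3.65%). The background was 6.83% and 5.77% of all genes, and 10.3% and 8.24% of those above the Tag range, so the share that fell is no larger than among bright genes. These lists were drawn up with earlier results of these data known. Leaving out control replicate 1, 2 or 3 gave 15, 12 and 13 falls and 6, 5 and 6 rises. Leaving out knockdown replicate 1, 2 or 3 gave 14, 12 and 19 falls and 7, 8 and 7 rises. The shares of all genes dropped as well, to between 2.6% and 4.37% that fell and between 3.49% and 4.6% that rose. Without variance moderation MXD1, MNT, MLXIP, PRMT3, GADD45B, TAF1D, BAZ2A, TAF1A, POLR1G, NUFIP1, MPHOSPH10, URB2, LSG1, RRS1, GTF3C4 and BDP1, named below, did not pass (adjusted p from 0.0501 to 0.154).

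Of 41 further small subunit assembly genes 8 fell (19.5%, against 6.83% of all genes and 10.3% of bright ones) and 0 rose, with a median of -0.06. WDR3 fell by 0.38 ± 0.042 (SE, limma adjusted p = 0.00157), DCAF13 by 0.26, and IMP3 and MPHOSPH10, partners in the same early complex, by 0.20 each. NOL11 fell by 0.15, which did not pass with any 1 array dropped (adjusted p from 0.0634 to 0.110), and MPHOSPH10 lost its call without control replicate 2 or 3 or knockdown replicate 1 or 2 (0.0654 to 0.101). The dimmer WDR3 probe set gave -0.13 (adjusted p = 0.388). Of 46 further large subunit genes 4 fell and 0 rose, with a median of -0.08, and their 8.7% lies within the background shares. They were URB2 (-0.28), LSG1, a GTPase of the last cytoplasmic step (-0.25), RRS1, which helps to load the small ribosomal RNA of the large subunit (-0.25), and NOL12 (-0.25). The LSG1 call was lost without control replicate 1 or 2 or knockdown replicate 2 (0.0564 to 0.0651), and that of RRS1 with any 1 control array or knockdown replicate 2 dropped (0.0561 to 0.0630). With its probe sets averaged NOL12 was at -0.10 (adjusted p = 0.214).

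The 16 genes of exonucleases, which trim ribosomal RNA ends, had a median of -0.08, and 0 rose. Of these genes 3 fell (18.8%, against 6.83% of all genes and 10.3% of bright ones). These were the exosome subunits EXOSC6 (-0.21), EXOSC8 (-0.18) and EXOSC5 (-0.16). Their calls were lost with any 1 control array dropped for EXOSC6 (0.0596 to 0.0646), any 1 array but control replicate 2 for EXOSC8 (0.0620 to 0.0821) and any 1 of the 6 arrays for EXOSC5 (0.0628 to 0.0936). Of 13 further small nucleolar ribonucleoprotein genes 1 fell (7.69%, near the background), the assembly factor NUFIP1 (-0.19), also lost with any 1 of the 6 arrays dropped (0.0728 to 0.143) and at -0.03 without _s_at and _x_at probe sets, and the median was -0.09.

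The other RNA polymerase I genes were mixed. Of 17 measured 1 fell (5.88%) and 3 rose (17.6%), with a median of -0.02. The background was 6.83% and 5.77% of all genes, and 10.3% and 8.24% of bright ones. POLR1G, a subunit of the polymerase, fell by 0.21 ± 0.043 (SE, limma adjusted p = 0.0189), lost without control replicate 1 or 3 or knockdown replicate 1 or 2 (0.0553 to 0.0596). TAF1D, a subunit of the promoter selectivity factor, rose by 0.33 ± 0.060 (SE, limma adjusted p = 0.0122), lost without control replicate 3 (0.0520), and was at 0.05 (adjusted p = 0.601) with arrays scaled to the hybridization controls. BAZ2A, part of a complex that silences ribosomal DNA, rose by 0.28 ± 0.052, and TAF1A, from the same factor as TAF1D, by 0.21 ± 0.055, and with arrays scaled to the hybridization controls both turned below 0 (-0.005 and -0.07). TAF1A lost its call with any 1 array but control replicate 3 dropped (0.0607 to 0.146). The other BAZ2A probe sets gave -0.06 and 0.05, and averaged over probe sets BAZ2A was at 0.09 (adjusted p = 0.226) and TAF1A at 0.12 (0.123).

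RNA polymerase III makes a small ribosomal RNA of the large subunit, and transfer RNAs. The median of 19 measured genes of this machinery was -0.10, and 0 rose. Of these genes 4 fell (21.1%, against 6.83% of all genes and 10.3% of bright ones). They were GTF3C6 (-0.25 ± 0.036 SE, limma adjusted p = 0.00485), GTF3C2 (-0.23) and GTF3C4 (-0.18), subunits of its DNA-binding factor, and BDP1 (-0.16), part of its initiation factor. GTF3C4 lost its call with any 1 array but knockdown replicate 3 dropped (0.0645 to 0.0985) and BDP1 with any 1 of the 6 dropped (0.0846 to 0.121).

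Ribosomal protein genes stayed close to their control level. Of 66 measured 1 fell (1.52%, against 6.83% of all genes) and 0 rose, with a median of 0.01, and 47 lay above 0. The 65 genes other than RPL27A had log2 changes of -0.08 to 0.08. RPL27A fell by 0.52 ± 0.068 (SE, limma adjusted p = 0.00343), but its control level of 3.70 lay within the Tag range, while the other 65 had control levels of 8.45 to 12.75.

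Partners and targets of MYC were also counted. Of 11 other factors of its network 2 rose (18.2%) and 1 fell (9.09%), with a median of -0.07. The background was 5.77% and 6.83% of all genes, and 8.24% and 10.3% of bright ones. MXD1, an antagonist that pairs with MAX, rose by 0.48 ± 0.11 log2 units (SE, limma adjusted p = 0.0309), from 3.73 to 4.21, at a control level with 1 of the 17 Tag probe sets above it. MNT, another such antagonist, rose by 0.22 ± 0.054 (limma adjusted p = 0.0351), turned to -0.06 with arrays scaled to the hybridization controls, and was at 0.08 (adjusted p = 0.343) averaged over its probe sets. Both calls were lost with any 1 array but knockdown replicate 2 dropped (0.0557 to 0.106), and the second probe sets of MXD1 and MNT gave 0.06 and -0.05. MLXIP, a glucose-sensing relative, fell by 0.23, lost without control replicate 2 or knockdown replicate 2 (0.0550 to 0.0574), and was at -0.03 with its probe sets averaged.

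Of 33 known MYC targets outside the ribosome 2 fell and 0 rose, with a median of -0.07. The share that fell was 6.06%, no larger than the 6.83% of all genes and 10.3% of bright ones. The 2 that fell are arginine methyltransferases, PRMT5 (-0.21 ± 0.041 SE, limma adjusted p = 0.0165) and PRMT3 (-0.19). PRMT5 lost its call without control replicate 2 or knockdown replicate 1 or 2 (0.0502 to 0.0619), and PRMT3 with any 1 of the 6 arrays dropped (0.0558 to 0.143). Averaged over its probe sets PRMT3 was at -0.12 (adjusted p = 0.135). Of 12 genes that MYC is known to repress 5 rose (41.7%) and 2 fell (16.7%), with a median of 0.04. The background was 5.77% and 6.83% of all genes, and 8.24% and 10.3% of bright ones. The stress gene GADD45A rose 1.86-fold, the cell cycle inhibitor CDKN1A 1.47-fold and NDRG1 1.28-fold (limma adjusted p = 2.8e-05, 0.00089 and 0.00328). NDRG1 was at 0.08 on the log2 scale (adjusted p = 0.447) with arrays scaled to the hybridization controls. GADD45B and the inhibitor CDKN1B rose by 0.21 and 0.19 on the log2 scale, both turned below 0 with arrays scaled to the hybridization controls (-0.07 and -0.09). GADD45B lost its call with any 1 control array or knockdown replicate 2 dropped (0.0537 to 0.0692), and CDKN1B without control replicate 2 (0.0628). The other CDKN1B probe set, which stands for the gene once _s_at and _x_at sets are left out, gave 0.05 (adjusted p = 0.484). The matrix gene THBS1 fell by 0.79 and the transcription factor CEBPA by 0.32 (limma adjusted p = 0.000358 and 0.00522). CDKN1A encodes p21, on which the study itself centred, so its rise is not an independent observation. Whether any change on this list is linked to MYC was not tested.

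**Figure D5:**
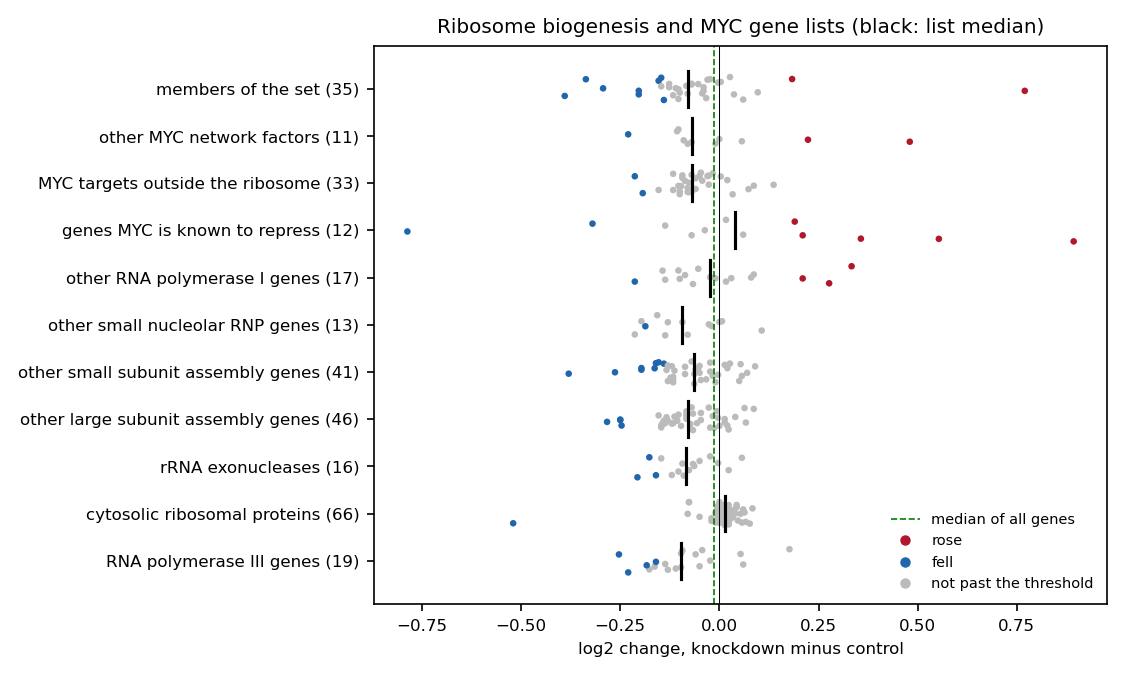
Log2 change, knockdown minus control (horizontal axis), of each measured gene of the members and of the 10 other lists, with the number of genes in brackets, list medians in black and the median of all genes as a dashed line. Ribosomal proteins cluster at 0.01, assembly and polymerase III lists at -0.10 to -0.06. Scaled to the hybridization controls all points move down by 0.281, which takes several rises, MYC included, below 0.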

How the data were processed

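The deposited values are log2 signals of 49372 probe sets on 6 one-colour arrays. Per the submitters' processing notes they were made with RMA, and nothing on software, version or annotation is given in the sources used here. Array medians were 5.10 to 5.11, so nothing was normalized again. Of the probe sets 44994 carried 1 symbol in the platform annotation, 1832 several and 2546 none. Symbols were updated through gene identifiers for 44967 of them. The knockdown and control arrays were fitted in limma 3.58.1 under R 4.3.3 (functions lmFit and eBayes, 2-sided, without covariates) over 18132 genes with Benjamini-Hochberg adjustment and a threshold of 0.05. An exact permutation test of 3 against 3 arrays cannot go below p = 0.1. Tested on simulated data with 18132 genes, the fit recovered 82.1% of changes of 0.3 log2 units, 98.5% of those of 0.6 and 100% of those of 1, with 11 false calls of 198. Many changes here are smaller than 0.3. The number of arrays limits the precision. Arrays of 1 group correlated at 0.9986 to 0.9989, and none was a copy of another. Values per array were given for MYC, MAX and each member past the threshold, and up to 5 genes past it in each direction for the other lists. NCL and RRN3 were added after their values were seen. The members and lists were chosen with earlier results of these data known. Figures were drawn with matplotlib 3.10.9.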

Additional observations from a re-analysis of the deposited data

How the results depend on the processing

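Alternatives changed how many members passed more than their direction. Scaled to the hybridization controls, 32 members fell and 1 rose, their median was -0.36, and MYC turned to -0.10. Of other pathway genes 260 fell and 3 rose, against 83.2% and 1.28% of all genes. Scaled to the poly-A controls, 27 members fell and 1 rose, the median was -0.22, and MYC was at 0.042. Of other pathway genes 162 fell and 5 rose, against 46.3% and 2.74% of all genes. Both scalings shift every gene down by construction. After cyclic loess 5 members fell, with a median of -0.049, and NOP56, BYSL and PES1 did not pass (5.01% of all genes fell). With dim genes left out, where fewer genes are tested, 13 members and 48 other pathway genes fell (16% of the genes tested). With an intensity trend and robust moderation 14 members and 66 other pathway genes fell, and 19 other pathway genes rose. Of all genes 11.3% fell and 8.01% rose. Without variance moderation 5 members fell and 1 rose, and 4 other pathway genes rose (3.88% of all genes fell and 3.37% rose). MYC was then at 0.18 (adjusted p = 0.0544). Without _s_at and _x_at probe sets 33 members could be tested, NOP56 not among them, and 5 fell (5.71% of genes). The cause of these differences was not tested. Same-numbered arrays showed little sign of pairing (their deviations from group means correlated at 0.0924, 0.0582 and -0.00953, and 4 of 6 arrays correlated best with their own number). With a replicate block 5 members fell and 1 rose, and 17 other pathway genes fell (4.12% of all genes fell and 4.51% rose). MYC was then at 0.18 (adjusted p = 0.0736). NOP56, BYSL, PES1, MNT, POLR1G, NUFIP1, MPHOSPH10, NOL11, EXOSC8, EXOSC5, GTF3C4 and BDP1 did not pass under the block (adjusted p from 0.0557 to 0.0894). Leaving out 1 array gave 4 to 5 members that fell, 1 to 2 that rose, a median of -0.092 to -0.065 and a MYC change of 0.16 to 0.20. Among other pathway genes it gave 12 to 19 falls and 5 to 8 rises. Of all genes 2.6% to 4.37% fell and 3.49% to 4.6% rose.

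Sign changes were seen mostly for genes near 0, but not only there. MYC, MNT, CDKN1B, GADD45B, TAF1A and BAZ2A, all called as rises in the main fit, turned below 0 scaled to the hybridization controls. Scaled to the hybridization controls, the changes were -0.24 for DDX21, -0.22 for UTP20, -0.18 for WDR43, -0.25 for NOP14, -0.28 for NOC3L, -0.058 for MNT, -0.091 for CDKN1B, -0.071 for GADD45B and TAF1A, and -0.0048 for BAZ2A. Scaled to the poly-A controls they were -0.10 for DDX21, -0.081 for UTP20, -0.044 for WDR43, -0.11 for NOP14 and -0.14 for NOC3L. Cyclic loess gave 0.028 for MAX and 0.0072 for WDR74. Averaged probe sets gave 0.051 for MAX, -0.19 for NOP14, 0.0083 for TSR1 and 0.0017 for RRP1B. Without _s_at and _x_at probe sets MAX was at 0.093, NOP14 at -0.22 and RRP1B at 0.10. Array weights gave 0.00069 for MAX and -0.0012 for NOC3L. Leaving out 1 array gave -0.027 to 0.023 for MAX, -0.028 to 0.11 for UTP20, -0.063 to 0.0017 for WDR74 and -0.045 to 0.045 for NOC3L. Of the other values of single genes under an alternative, 833 kept direction and call, 178 lost the call and 50 gained one.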

Other observations

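The E-box was also counted in the promoters of the other lists. It was present for 16 of 30 MYC targets outside the ribosome (53.3%), 13 of 36 further small subunit assembly genes (36.1%), 6 of 16 RNA polymerase III genes (37.5%) and 11 of 43 further large subunit assembly genes (25.6%). It was present for 4 of 63 ribosomal protein genes (6.35%) and 1 of 15 other RNA polymerase I genes (6.67%), against 8.77% of all genes in the promoter table. A match that begins at or after the start site was found for 10 of 30 members (33.3%), 9 of the 36 small subunit genes and 6 of the 30 MYC targets, against 1.12% of all genes. The shares of the other lists were not compared with their changes on the arrays.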
